A study of Mus musculus with 6 samples.

Results

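Chemokine receptor genes of marrow leukocytes were described across RNA-seq libraries of mouse bone marrow regulatory T cells (Tregs). The 9 genes were Cxcr2, Cxcr3, Cxcr4, Cxcr6, Ccr1, Ccr2, Ccr7, Ccr9 and Cx3cr1. They were chosen by symbol among the 15483 genes of the deposited tables, and all 9 were found and tested. There were 3 libraries from control mice and 3 libraries from mice 3 months after irradiation, and the mice of both groups were wild type (WT). Per the series' design text, the sorted Tregs had the phenotype CD3+CD4+NK1.1–Foxp3+, where NK1.1 is an NK cell antigen and Foxp3 is the transcription factor that defines Tregs. The series title speaks of premature aging. The sources used here give no radiation dose and no age, sex or strain of the mice. The labels do not say whether the libraries of a group came from separate mice or from pools, so p-values measure only the spread between these libraries, which may be technical.

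Chemokine receptors are G protein-coupled receptors on the leukocyte surface that bind small secreted chemokines and steer migration, mainly through Gi proteins, phosphoinositide 3-kinase gamma and Rac. In bone marrow, Cxcr4 holds leukocytes and progenitors near stromal cells that make its ligand Cxcl12, while Cxcr2 promotes the release of neutrophils and Ccr2 that of inflammatory monocytes. Cxcr3, Cxcr6 and Ccr7 are known from T cells, Ccr9 from thymocytes, gut-homing T cells and plasmacytoid dendritic cells, and Cx3cr1 from patrolling monocytes, macrophages and cytotoxic lymphocytes.

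Values were FPKM (fragments per kilobase, scaled to library depth), which are scaled to transcript length, so that levels can be compared between genes. The libraries held transcripts of other marrow cells beside those of Tregs. The 16 neutrophil markers, such as S100a8 and Ly6g, summed to between 68679 and 73685 FPKM in control libraries and between 100385 and 103287 FPKM in irradiated libraries. The 15 tested T cell core markers summed to between 504 and 526 FPKM and to between 306 and 316 FPKM. The genes of the gate were present, with Foxp3 at 22.6 ± 1.93 FPKM in control libraries and at 12.6 ± 0.795 FPKM after irradiation (SD, n = 3), Cd3e at 39.5 and 25.0 FPKM and Cd4 at 37.4 and 22.8 FPKM. Klrb1c, which encodes NK1.1, stood at 17.9 and 9.52 FPKM, and the NK cell gene Ncam1 stood at 5.15 and 4.54 FPKM. In bulk samples of this kind, fewer cells of a type and less RNA per cell cannot be told apart. The steps between low values implied a depth of 17000000 to 17800000 fragments in control libraries and of 14100000 to 16100000 fragments in irradiated libraries.

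The promoters of 4 members are shown because these members had the lowest adjusted p in each direction. A promoter window here is the 250 bases before and 50 bases after the gene start of RefSeq on GRCm38.p6, read 5′ to 3′ along the gene's strand. Capitals mark any match, on either strand, to 1 of 6 short motifs chosen after the values were seen: AGGAAG of ETS factors, TGTGGT of RUNX factors, TTGCNNAA of C/EBP factors, GGTGTGA of T-box factors, the TATA box letters TATAAA and the GC box letters GGGCGG. The Cxcr2 window is chr1:74153744-74154043 on the plus strand, and the Ccr1 window is chr9:123968643-123968942 on the minus strand. The Cxcr3 window is chrX:101734098-101734397 on the minus strand, and the Cx3cr1 window is chr9:120068247-120068546 on the minus strand.
Cxcr2: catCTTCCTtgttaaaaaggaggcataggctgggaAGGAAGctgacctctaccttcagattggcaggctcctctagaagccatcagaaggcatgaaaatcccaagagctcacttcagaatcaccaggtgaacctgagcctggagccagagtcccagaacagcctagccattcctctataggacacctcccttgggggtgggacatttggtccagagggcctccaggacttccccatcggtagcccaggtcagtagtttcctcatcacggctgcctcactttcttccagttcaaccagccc
Ccr1: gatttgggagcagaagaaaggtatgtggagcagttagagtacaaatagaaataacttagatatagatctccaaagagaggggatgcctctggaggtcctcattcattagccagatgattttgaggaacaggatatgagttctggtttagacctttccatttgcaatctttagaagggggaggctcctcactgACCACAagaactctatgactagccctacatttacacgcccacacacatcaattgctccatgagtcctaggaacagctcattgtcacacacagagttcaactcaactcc
Cxcr3: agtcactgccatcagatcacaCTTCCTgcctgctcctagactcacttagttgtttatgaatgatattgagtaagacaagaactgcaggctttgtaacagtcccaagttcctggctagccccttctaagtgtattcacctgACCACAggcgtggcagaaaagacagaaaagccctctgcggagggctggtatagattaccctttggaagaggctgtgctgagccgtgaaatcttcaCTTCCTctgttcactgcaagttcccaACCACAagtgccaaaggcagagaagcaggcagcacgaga
Cx3cr1: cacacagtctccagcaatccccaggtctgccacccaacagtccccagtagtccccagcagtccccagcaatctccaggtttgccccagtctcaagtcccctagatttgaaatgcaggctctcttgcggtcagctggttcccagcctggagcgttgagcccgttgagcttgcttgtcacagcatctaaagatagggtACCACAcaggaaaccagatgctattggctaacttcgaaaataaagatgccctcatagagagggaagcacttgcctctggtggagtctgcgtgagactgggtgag

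In these windows, Cxcr2 held the ETS letters at 2 places, 247 and 215 bases before the start. Ccr1 held the RUNX letters once, 58 bases before the start, and Cx3cr1 held them once, 54 bases before the start. Cxcr3 held both motifs, each at 2 places. Of the 8 members with a window, 4 held TGTGGT (Cxcr3, Cxcr6, Ccr1 and Cx3cr1), against 16.8% of all 32851 windows. There were 3 members with AGGAAG (Cxcr2, Cxcr3 and Ccr9), against 35.4% of all windows. Cxcr4 was the member that held GGGCGG, at 3 places, and TATAAA, at 2 overlapping places, against 35.7% and 13.6% of all windows. TTGCNNAA and GGTGTGA matched 0 of the 8 member windows, against 10.8% and 3.98% of all windows. Apart from the overlapping pair in Cxcr4, no match overlapped another. Ccr2 held none of the 6 motifs, and Ccr7 had no window. The RUNX letters thus stood in genes of both directions, in Ccr1 as well as in Cxcr3, Cxcr6 and Cx3cr1. A match of letters in these windows describes the sequence and not a bound site.

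Of the 9 receptors, 2 were higher in irradiated libraries (Cxcr2 and Ccr1) and 4 were lower (Cxcr3, Cxcr6, Ccr9 and Cx3cr1), by limma on log2(FPKM + 1) with Benjamini-Hochberg adjustment over all 10666 tested genes. Cxcr4, Ccr2 and Ccr7 did not pass the threshold of 0.05. The background was 16.6% of all tested genes called, with 6.29% higher and 10.3% lower in irradiated libraries. The groups did not overlap for 7 of the 9 members, against 33.6% of all tested genes. The median log2 change was -0.21 over the members and -0.02 over all tested genes. The members were proposed with earlier results of these data known, so these shares describe the set and are no test of it. Each log2 change below is the irradiated mean minus the control mean of log2(FPKM + 1), a scale on which the changes of low genes look smaller than they are.

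**Figure D1:**
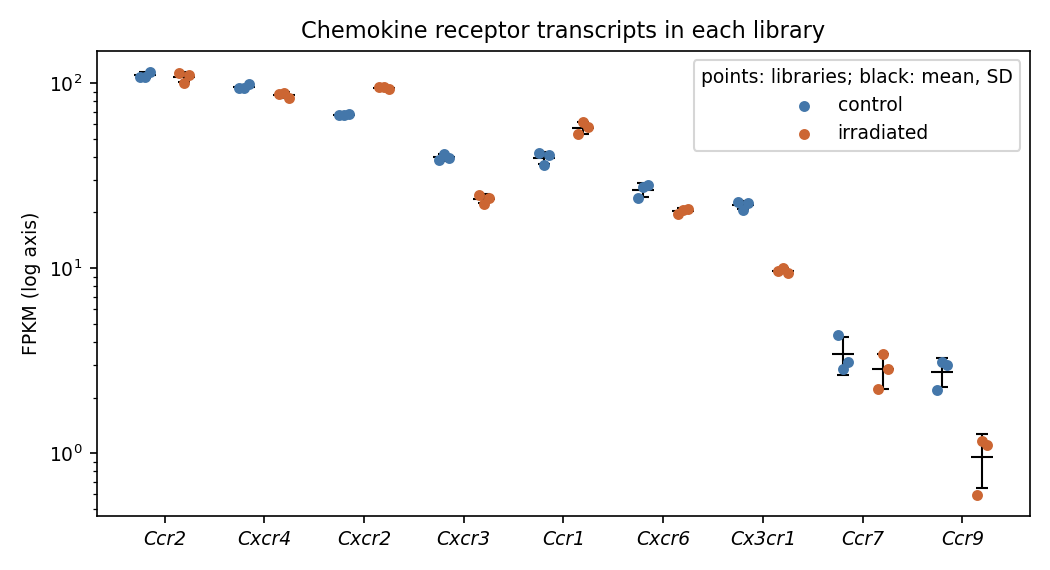
FPKM of the 9 chemokine receptor genes on a log axis, in control (blue) and irradiated (orange) libraries; points are libraries, black bars the mean and SD of 3. Cxcr2 and Ccr1 stand higher in the irradiated libraries, and Cxcr3, Cxcr6, Cx3cr1 and Ccr9 stand lower, without overlap between the groups.

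Cxcr2, the receptor through which neutrophils follow ELR-motif CXC chemokines, lies on chromosome 1 from 74153989 to 74161246 (plus strand, GENCODE M21 on GRCm38). It stood at 67.1, 67.2 and 67.8 FPKM in control replicates 1, 2 and 3 and at 94.9, 94.9 and 93.4 FPKM in irradiated replicates 1, 2 and 3. All irradiated libraries were above all control libraries, and the libraries within a group lay close together. The mean was 67.4 ± 0.353 FPKM against 94.4 ± 0.859 FPKM (SD, n = 3), a rise of 40.1%. The log2 change was 0.48 ± 0.05 (SE), with a limma adjusted p of 6.2e-05. Neutrophil markers moved in the same direction, with 12 of 16 higher and 0 lower. On the log2 scale, the difference of Cxcr2 from the mean of the neutrophil markers was -3.70 ± 0.0135 in control libraries and -3.63 ± 0.00934 after irradiation (SD, n = 3). The shift of 0.07 was small beside the rise of Cxcr2 itself, although the groups did not overlap (two-sided exact permutation p = 0.1, the smallest that 3 against 3 allows). A small shift was not particular to this list. Cxcr2 moved by -0.06 against plasma cell markers, with overlap, and by -0.09 against markers of basophils and mast cells, without overlap. The part of the neutrophil transcripts in the rise was not tested.

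Cxcr4, the receptor for Cxcl12, lies on chromosome 1 from 128588199 to 128592293 (minus strand). It stood at 93.5, 94.6 and 98.5 FPKM in control and at 87.5, 88.1 and 82.9 FPKM in irradiated replicates 1, 2 and 3. Each irradiated library was below each control library. The mean was 95.5 ± 2.63 FPKM against 86.2 ± 2.82 FPKM (SD, n = 3), and the log2 change of -0.15 ± 0.05 (SE) had a limma adjusted p of 0.0863. Its 95% interval ran from -0.26 to -0.03, so that the adjustment over all genes, and not an interval that includes 0, kept it from being called. The order of Cxcr2 and Cxcr4, receptors with opposed roles in neutrophil release, differed between the groups. The ratio of Cxcr2 to Cxcr4 was 0.718, 0.711 and 0.688 in control and 1.08, 1.08 and 1.13 in irradiated replicates 1, 2 and 3. Cxcr4 was the more abundant transcript in every control library and Cxcr2 in every irradiated library. The mean ratio was 0.705 ± 0.0155 against 1.10 ± 0.0264 (SD, n = 3, two-sided exact permutation p = 0.1). This ratio was chosen after the values were seen.

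Ccr1, a receptor of neutrophils, monocytes and other leukocytes for Ccl3 and Ccl5, lies on chromosome 9 from 123962124 to 123968692 (minus strand). It stood at 42.0, 36.2 and 40.7 FPKM in control and at 53.0, 62.0 and 57.6 FPKM in irradiated replicates 1, 2 and 3. Irradiated libraries were higher without overlap, with a wider spread than for Cxcr2. The mean was 39.6 ± 3.04 FPKM against 57.5 ± 4.50 FPKM (SD, n = 3), a rise of 45.2%. The log2 change was 0.53 ± 0.08 (SE) with a limma adjusted p of 0.000825. Against the neutrophil markers of the same library, Ccr1 moved by 0.12 and the groups overlapped (exact permutation p = 0.3). The shift was 0.05 without control replicate 2, 0.07 without irradiated replicate 2 and up to 0.18 without irradiated replicate 1. The groups also overlapped against late neutrophil markers (0.16), plasma cell markers (-0.01) and markers of basophils and mast cells (-0.04). Against the monocyte markers it moved by 0.96 without overlap (exact permutation p = 0.1).

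Ccr2 and Cx3cr1 mark opposite ends of monocyte life, since Ccr2 is high in inflammatory Ly6c-positive monocytes and Cx3cr1 in patrolling monocytes and tissue macrophages. Ccr2, the receptor for Ccl2 and Ccl7, lies on chromosome 9 from 124101950 to 124113557 (plus strand). It stood at 108.0, 108.4 and 114.7 FPKM in control and at 113.3, 100.4 and 110.6 FPKM in irradiated replicates 1, 2 and 3. The groups overlapped. The mean was 110.4 ± 3.77 FPKM against 108.1 ± 6.85 FPKM (SD, n = 3). The log2 change was -0.03 ± 0.06 (SE) with a 95% interval from -0.16 to 0.10 and a limma adjusted p of 0.778.

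Cx3cr1, the receptor for fractalkine, had the smallest adjusted p among the 9 members. Its gene lies on chromosome 9 from 119901616 to 120069879 (minus strand), and its exons overlap those of the gene model Gm33858 on the opposite strand. No strand setting of the authors' quantification is known from the sources used, so reads of the overlapping models may not have been separated. Cx3cr1 stood at 22.8, 20.6 and 22.5 FPKM in control and at 9.61, 10.01 and 9.44 FPKM in irradiated replicates 1, 2 and 3. The irradiated libraries lay close together and all were far below the control libraries. The mean fell from 22.0 ± 1.19 FPKM to 9.69 ± 0.291 FPKM (SD, n = 3), and the log2 change was -1.10 ± 0.09 (SE) with a limma adjusted p of 6.67e-06.

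The 2 monocyte receptors differed in how they stood to markers of the same library. Monocyte markers were lower in 11 of 15 cases and higher in 0, and macrophage markers such as C1qa and Vcam1 were lower in 13 of 13. Against the mean of the monocyte markers, Ccr2 moved by 0.40 and Cx3cr1 by -0.67 on the log2 scale, both without overlap (exact permutation p = 0.1). Against the macrophage markers, whose median log2 change was -1.50, Cx3cr1 moved by 0.29 (exact permutation p = 0.1). Cx3cr1 thus fell by more than the mean of the monocyte markers and by less than the mean of the macrophage markers. NK and cytotoxic markers, of which 10 of 12 were lower, gave a shift of -0.34. The ratio of Ccr2 to Cx3cr1 was 4.73, 5.26 and 5.09 in control and 11.8, 10.03 and 11.7 in irradiated replicates 1, 2 and 3. Its mean was 5.03 ± 0.268 against 11.2 ± 0.999 (SD, n = 3, exact permutation p = 0.1), and this ratio too was chosen after the values were seen. The part of monocytes, macrophages and cytotoxic cells in these values was not tested.

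**Figure D2:**
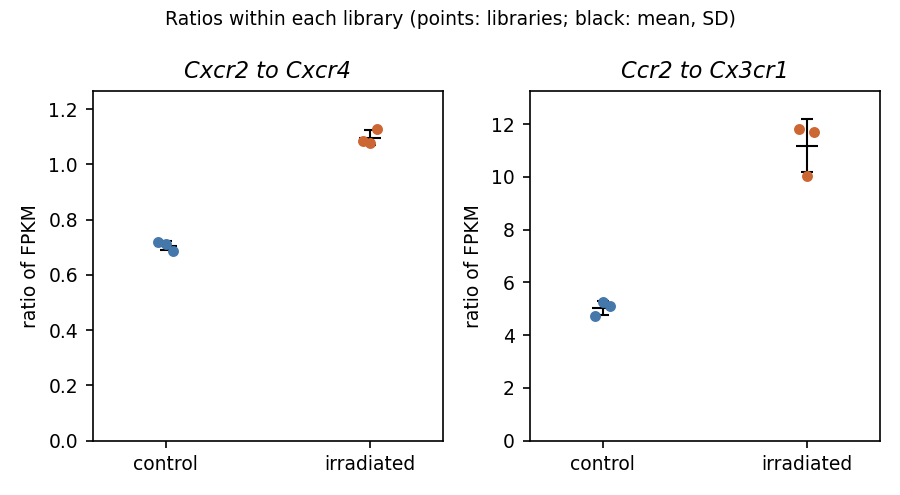
Ratio of FPKM of Cxcr2 to Cxcr4 (left) and of Ccr2 to Cx3cr1 (right) in each library; points are libraries, black bars the mean and SD of 3. The mean ratio goes from 0.705 to 1.10 on the left and from 5.03 to 11.2 on the right.

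Cxcr3, a receptor of effector T cells, NK cells and a subset of Tregs for the interferon-induced ligands Cxcl9, Cxcl10 and Cxcl11, lies on chromosome X from 101731535 to 101734269 (minus strand). It stood at 38.3, 41.6 and 39.3 FPKM in control and at 24.9, 22.3 and 24.0 FPKM in irradiated replicates 1, 2 and 3. The irradiated libraries were lower without overlap. The mean was 39.7 ± 1.69 FPKM against 23.7 ± 1.34 FPKM (SD, n = 3), and the log2 change was -0.72 ± 0.07 (SE) with a limma adjusted p of 4.64e-05. T cell core markers fell in 13 of 15 cases and Treg markers in 10 of 13. Against the mean of the T cell core markers in the same library, Cxcr3 moved by -0.11 and the groups overlapped (exact permutation p = 0.3). The shift was -0.06 without control replicate 2, -0.07 without irradiated replicate 2 and as far as -0.15 without irradiated replicate 1. Against the NK and cytotoxic markers it moved by 0.05, also with overlap (exact permutation p = 0.6). The groups overlapped as well against eosinophil (-0.02), erythroid (-0.17) and stromal (-0.17) markers, so a small shift was not particular to lymphocyte lists. Against the Treg markers Cxcr3 moved by -0.11 without overlap (exact permutation p = 0.1). The part of T cell and NK cell transcripts in the fall of Cxcr3 was not tested.

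Cxcr6, a receptor of tissue-resident and activated lymphocytes for Cxcl16, lies on chromosome 9 from 123806475 to 123811760 (plus strand). It stood at 23.9, 27.3 and 28.2 FPKM in control and at 19.7, 20.6 and 20.96 FPKM in irradiated replicates 1, 2 and 3. The irradiated libraries were lower without overlap, and control replicate 1 lay nearest to them. The mean was 26.5 ± 2.30 FPKM against 20.4 ± 0.641 FPKM (SD, n = 3), and the log2 change was -0.36 ± 0.08 (SE) with a limma adjusted p of 0.0129. Without control replicate 2 the log2 change was -0.33 and the limma adjusted p was 0.0592, so that the call was lost. Against the T cell core markers, Cxcr6 moved by 0.25 without overlap (exact permutation p = 0.1), the opposite sign to its change in FPKM. It moved by less, with overlap, against monocyte (0.08), erythroid (0.19) and stromal (0.19) markers. The ratio of Cxcr3 to Cxcr6 was 1.51 ± 0.107 in control and 1.16 ± 0.0927 in irradiated libraries (SD, n = 3, exact permutation p = 0.1), a ratio chosen after the values were seen. The mean FPKM of Cxcr3 fell by 40.3% and that of Cxcr6 fell by 22.9%.

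Ccr9, the receptor for Ccl25, had low values. Its gene lies on chromosome 9 from 123678439 to 123784330 (plus strand), and its exons overlap those of Gm17200 on the same strand and of Slc6a20a and AC165425.1 on the opposite strand, so its value is uncertain. It stood at 2.20, 3.10 and 3.001 FPKM in control and at 0.599, 1.16 and 1.11 FPKM in irradiated replicates 1, 2 and 3. The irradiated libraries were lower without overlap. The mean fell from 2.76 ± 0.495 FPKM to 0.958 ± 0.312 FPKM (SD, n = 3), and the log2 change was -0.95 ± 0.18 (SE) with a limma adjusted p of 0.00374. Ccr9 reached the minimum mean of 1 FPKM for testing only through the control libraries. Depending on the transcript, the depth steps implied between 25.1 and 97.3 fragments for Ccr9 in an irradiated library. Markers of plasmacytoid dendritic cells, which carry Ccr9, were lower in 8 of 10 cases, and their sum ranged from 355 to 371 FPKM in control and from 142 to 155 FPKM in irradiated libraries. Ccr9 moved by 0.36 against the mean of these markers, with overlap (exact permutation p = 0.2). It moved by less, also with overlap, against dendritic (-0.10), NK and cytotoxic (-0.18), eosinophil (-0.25), T cell core (-0.34) and Treg (-0.34) markers. The part of any of these cells in the fall of Ccr9 was not tested.

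Ccr7, the receptor that takes naive and central memory T cells and mature dendritic cells to lymph nodes, lies on chromosome 11 from 99144196 to 99155077 (minus strand). It stood at 4.36, 2.85 and 3.12 FPKM in control and at 2.22, 3.44 and 2.86 FPKM in irradiated replicates 1, 2 and 3. The groups overlapped. The mean was 3.44 ± 0.803 FPKM against 2.84 ± 0.610 FPKM (SD, n = 3). The log2 change of -0.21 ± 0.17 (SE) had a 95% interval from -0.59 to 0.17 and a limma adjusted p of 0.474. Its size rested on single libraries, with -0.07 without control replicate 1, -0.09 without irradiated replicate 1 and -0.32 without irradiated replicate 2. These levels implied between 70.1 and 149.3 fragments per library.

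**Figure D3:**
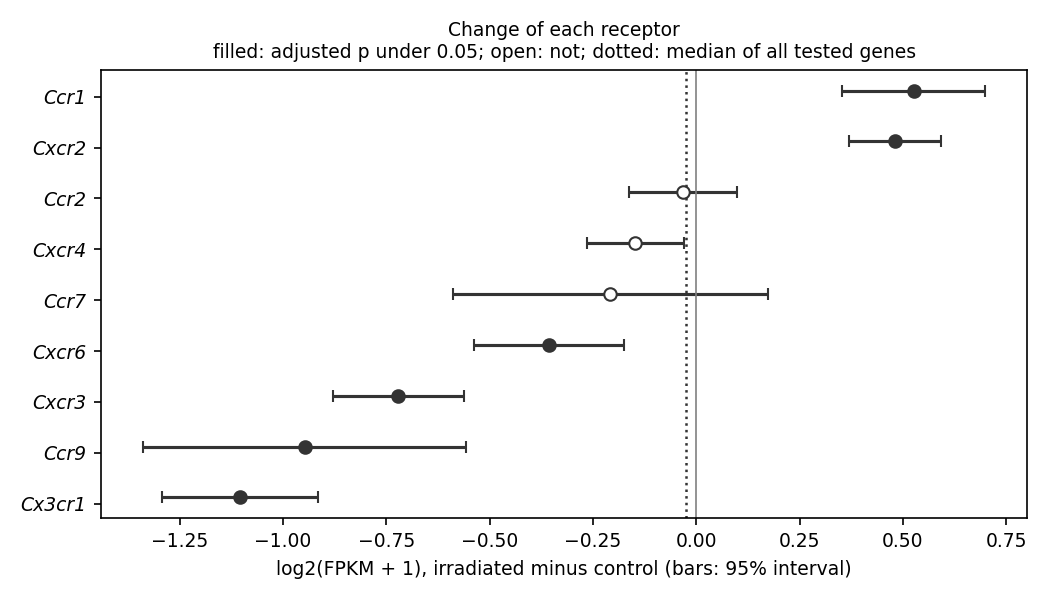
Irradiated minus control difference of each receptor in log2(FPKM + 1), with 95% intervals from limma; filled points passed an adjusted p of 0.05, open points did not, and the dotted line is the median of all tested genes (-0.02). Ccr1 (0.53) and Cxcr2 (0.48) lie on the right, and Cx3cr1 (-1.10) and Ccr9 (-0.95) lie farthest to the left.

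The 9 receptors together kept nearly the same summed level, from 402 to 418 FPKM in control and from 403 to 406 FPKM in irradiated libraries, while their shares of that sum moved. As a part of all FPKM of a library, the 9 held 0.0855% to 0.0926% in control and 0.0830% to 0.0844% in irradiated libraries. The sum over 19 chemokine receptors, these 9 among them, ranged from 446 to 462 FPKM in control and from 427 to 430 FPKM in irradiated libraries. Both measures were lower after irradiation without overlap. In control libraries the order of mean FPKM was Ccr2, Cxcr4, Cxcr2, Cxcr3, Ccr1, Cxcr6, Cx3cr1, Ccr7 and Ccr9. Among neighbours in that order, the libraries of Cxcr3 and Ccr1 overlapped, as did those of Ccr7 and Ccr9. In irradiated libraries the order was Ccr2, Cxcr2, Cxcr4, Ccr1, Cxcr3, Cxcr6, Cx3cr1, Ccr7 and Ccr9, and no neighbours overlapped. The share of Cxcr2 went from 16.5% ± 0.284 to 23.4% ± 0.189 of the sum of the 9 (SD, n = 3). Ccr1 held 9.73% ± 0.719 and then 14.2% ± 1.17. The share of Cxcr3 went from 9.76% ± 0.515 to 5.87% ± 0.313 and that of Cx3cr1 from 5.40% ± 0.271 to 2.40% ± 0.0758. Ccr2, the most abundant of the 9 in both groups, held 27.1% ± 0.317 and 26.8% ± 1.62.

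Across all 17 marker lists there were 153 pairs of a receptor and a list, and the smallest exact permutation p of 0.1 became 0.126 after Benjamini-Hochberg adjustment, so no pair could pass. Late neutrophil markers, which include Mmp8 and Retnlg, were higher in 7 of 10 cases. Dendritic markers were lower in 7 of 8, B cell markers in 11 of 11, eosinophil markers in 7 of 9, erythroid markers in 6 of 8 and stromal markers in 2 of 4. Plasma cell markers were higher in 3 of 5 and markers of basophils and mast cells in 6 of 6. Of 3 megakaryocyte markers 1 was higher and 1 lower, and of 2 CD8 T cell markers 0 were called. None of the markers was listed at 0 in every library. Cxcr4 shifted by -0.55 against neutrophil markers and by 0.46 against T cell core markers (exact permutation p = 0.1 for each). Ccr2 (-0.44 and 0.58), Cxcr6 (-0.76 and 0.25) and Ccr7 (-0.61 and 0.40, the latter with overlap) had the same signs. Lying between these lists was thus not particular to Cxcr4.

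**Figure D4:**
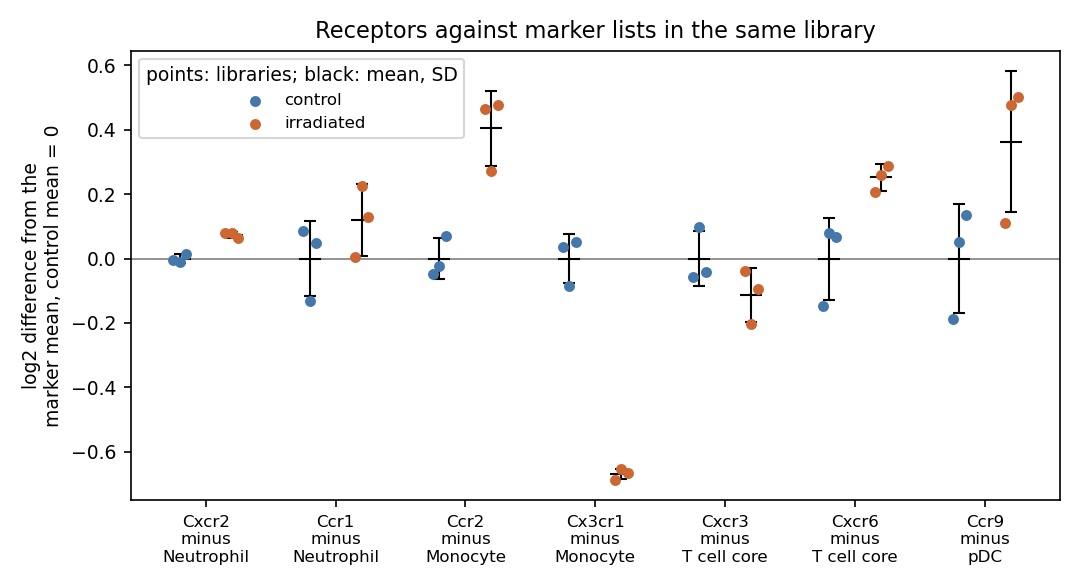
Each receptor's log2(FPKM + 1) minus the mean of a marker list in the same library, set to a control mean of 0; points are libraries, black bars the mean and SD of 3, and pDC stands for plasmacytoid dendritic cells. Cx3cr1 falls by 0.67 and Ccr2 gains 0.40 against the monocyte list, while Cxcr2 moves by 0.07 against the neutrophil list.

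The direction of several receptors depended on the scale. When each library was scaled to its T cell core genes, the median log2 change of all tested genes moved to 0.56, and 80.8% of all tested genes were called higher and 2.32% lower. Of the receptors, 5 were called higher and 2 lower on that scale, against 2 and 4 in FPKM as deposited, so the number called higher follows the shift of all genes. On that scale Cxcr2 (1.12), Ccr1 (1.16), Ccr2 (0.61), Cxcr4 (0.49) and Cxcr6 (0.26) were called higher, and Ccr9 (-0.55) and Cx3cr1 (-0.50) lower. Cxcr3 then changed by -0.09 (limma adjusted p = 0.270) and Ccr7 by 0.28 (limma adjusted p = 0.147), and neither was called. Relative to the shift of all genes, Cxcr2 and Ccr1 stood above 0.56, Ccr2 close to it, and Cxcr4 and Cxcr6 below it. Cxcr2, Ccr1, Cx3cr1 and Ccr9 had the same direction and call on both scales.

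Of the 9 receptor genes, 4 (Ccr9, Cxcr6, Ccr1 and Ccr2) lie within a run of 6 receptor genes on chromosome 9 that spans 435 kb from Ccr9 to Ccr2 and also holds Xcr1 and Ccr3. Neighbours in this run moved in different directions. Ccr1 rose (log2 change 0.53), while Ccr3 at its side fell by 1.17 ± 0.11 (SE) on the log2 scale, and Ccr2 did not pass the test. Cxcr6 lies 22.1 kb after Ccr9, and both fell. Xcr1 was below the minimum mean of 1 FPKM and was not tested.

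**Figure D5:**
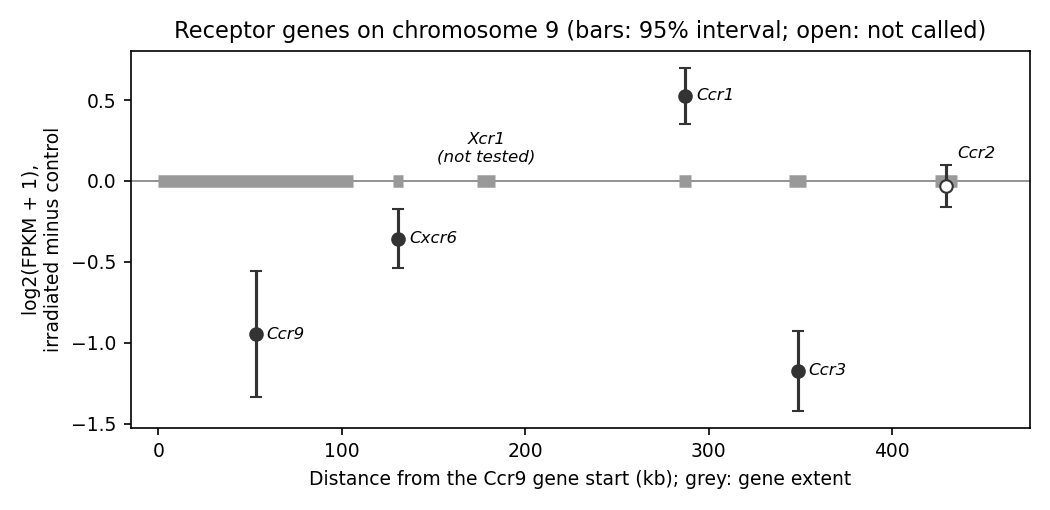
Change of the chemokine receptor genes along their run on chromosome 9, by distance from the Ccr9 gene start in kb; points are irradiated minus control differences in log2(FPKM + 1) with 95% limma intervals, open where not called, and grey bars are gene extents. Ccr1 rises by 0.53, while Ccr9, Cxcr6 and Ccr3 fell, Ccr2 did not pass the test and Xcr1 was not tested.

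The genes whose pattern over the 6 libraries was most like each member were found by the root mean square (RMS) difference of centred log2(FPKM + 1) among the 7769 named genes whose mean reached 5 FPKM. For Cxcr2 they were Ncf1 (RMS difference 0.022), a subunit of the phagocyte NADPH oxidase, Flot2 (0.022) and Gsr (0.030). For Ccr1 they were Inhba (0.028), Clec4e (0.046) and Prodh (0.057), of which Clec4e encodes a myeloid lectin receptor. For Cxcr3 they were Ctss (0.034), the gene of the lysosomal protease cathepsin S, Hsph1 (0.038) and Clec4a1 (0.039). For Cx3cr1 they were Selenop (0.041), Adgre4 (0.042) and Fcgr1 (0.053), of which Fcgr1 encodes an Fc receptor of monocytes and macrophages. For Ccr9 they were Pou2af1 (0.095), a B cell coactivator gene, and Icos (0.11), a T cell costimulator gene. For Cxcr4 they were Dyrk1a (0.013), Lyn (0.015) and Macroh2a1 (0.016), for Cxcr6 Epb41l2 (0.030), Snx5 (0.037) and Limd1 (0.038), for Ccr2 Ppp1ccb (0.022), Stag2 (0.022) and Gatad2b (0.025), and for Ccr7 Akr1b10 (0.058), Ube2t (0.062) and Sdhaf1 (0.072). With 2 groups of 3, this measure mostly reflects the size of the group difference.

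Other chemoattractant receptors of leukocytes also moved in both directions. Of 21 further receptors, 15 were tested, of which 4 were higher, 5 were lower and 6 were not called, with log2 changes of the 6 from -0.54 to 0.19. The median log2 change of the 15 was -0.43, and 60% of them were called, against 16.6% of all tested genes. This share describes the list and is no test of it. The 4 that rose are receptors of neutrophils and monocytes. Fpr2, a receptor for formyl peptides, rose from 76.0 ± 1.66 FPKM to 133.8 ± 5.06 FPKM (log2 change 0.81 ± 0.05, limma adjusted p = 1.75e-06). Fpr1 (0.43 ± 0.10), the complement C5a receptor gene C5ar1 (0.49 ± 0.08) and Cxcr1 (1.14 ± 0.25, SE) rose as well. Cxcr1, the paralog of Cxcr2, stood at 0.341, 0.217 and 1.08 FPKM in control and at 3.66, 1.89 and 1.72 FPKM in irradiated replicates 1, 2 and 3, all low values. Cxcr1 reached the minimum mean of 1 FPKM only through the irradiated libraries.

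The 5 receptors that fell included Ccr3, the eotaxin receptor of eosinophils, which went from 16.8 ± 1.72 FPKM to 6.87 ± 0.754 FPKM (SD, n = 3, limma adjusted p = 3.18e-05). Ccr4 and Ccr8, receptors of Tregs and type 2 helper T cells, changed by -0.64 ± 0.15 and -1.08 ± 0.22 (log2, SE). Ccrl2, an atypical receptor that presents chemerin, went from 5.04 ± 0.226 to 2.07 ± 0.732 FPKM. Ccr4 and Ccr8 were low, at 4.01 ± 0.610 and 3.75 ± 0.951 FPKM in control libraries and at 2.21 ± 0.304 and 1.28 ± 0.623 FPKM in irradiated libraries (SD, n = 3). Ccr10, Xcr1 and Ackr4 were below the minimum mean, and Ackr1, Ackr2 and Ackr3 were not analysed here.

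Downstream of the receptors, 37 signalling genes were tested, of which 6 were higher and 5 lower, with a median log2 change of -0.03. Called were 29.7% of them, against 16.6% of all tested genes (6.29% higher and 10.3% lower). This share describes the list and is no test of it. Arrb2, which encodes the beta-arrestin that uncouples and internalises chemokine receptors, stood at 162, 169 and 183 FPKM in control and at 257, 268 and 259 FPKM in irradiated replicates 1, 2 and 3. The irradiated libraries were all higher, and the log2 change was 0.61 ± 0.05 (SE) with a limma adjusted p of 1.69e-05. Grk6, a kinase that phosphorylates Cxcr4 and other receptors, rose by 0.24 ± 0.05, and the myeloid Src family kinase gene Fgr by 0.35 ± 0.06 on the log2 scale. Rgs16, a brake on Gi signalling, fell from 3.04 ± 0.0719 FPKM to 0.646 ± 0.236 FPKM (SD, n = 3, log2 change -1.30 ± 0.16, limma adjusted p = 0.000212). Rgs16 was low and reached the minimum mean of 1 FPKM only through the control libraries. Prex1, a Rac exchange factor gene, changed by -0.27 ± 0.06. The Gi subunit gene Gnai2, chosen after its values were seen, had means of 522 ± 9.12 and 552 ± 18.3 FPKM (SD, n = 3) and was not called.

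The ligands of the 9 receptors were tested where their mean reached 1 FPKM, which 15 of 25 did. Of these, 3 were higher and 5 lower, with a median log2 change of -0.18. Called were 53.3% of them, against 16.6% of all tested genes, which describes the list and is no test of it. Ccl3, a ligand of the risen Ccr1, went from 95.6 ± 13.5 FPKM to 141 ± 0.606 FPKM (SD, n = 3, log2 change 0.57 ± 0.08, limma adjusted p = 0.000664). Cxcl2, a ligand of Cxcr2 that also stands in the late neutrophil list, rose by 0.63 ± 0.13 on the log2 scale. Cxcl9 and Cxcl10, ligands of Cxcr3, fell together with their receptor, by 1.17 ± 0.19 and 1.11 ± 0.17 on the log2 scale. Cxcl10 stood at 6.50, 5.96 and 7.18 FPKM in control and at 3.24, 1.75 and 2.63 FPKM in irradiated replicates 1, 2 and 3. Ccl5, a ligand of Ccr1 and a product of cytotoxic lymphocytes that stands in the NK and cytotoxic list, fell from 141 ± 1.77 FPKM to 86.4 ± 6.39 FPKM (limma adjusted p = 1.27e-05). Ppbp, a platelet chemokine gene that codes for a Cxcr2 ligand and also stands in the megakaryocyte list, was low and changed by -1.14 ± 0.21. Like Cxcl9, it reached the minimum mean only through the control libraries. Without control replicate 1 the number of lower ligands was 2, but only 12 ligands then reached the minimum mean and were tested. Ccl3 and Ccl5, both ligands of Ccr1, thus changed in opposite directions.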

How the data were processed

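Expression was measured by RNA-seq in 3 control and 3 irradiated libraries, grouped by the treatment label. Per the labels' protocols, RNA of sorted cells was extracted with an RNeasy Micro kit and libraries were made with a TruSeq stranded mRNA kit. The submitters' processing notes name fastp, HISAT2, StringTie and the builds GRCm38 and mm10, without versions. The tables the authors deposited hold a single value for each gene, read here as FPKM because the low values of single-transcript genes, times transcript length, fell on whole multiples of a step in 26.1% to 30.7% of cases (tolerance 0.03 of a step) against about 5% at other steps. These steps gave the depths above, which assume 1 step per fragment.

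The FPKM values were tested on log2(FPKM + 1) for the 10666 genes whose mean reached 1 FPKM. The two-sided test was that of limma 3.58.1 (R 4.3.3) with a mean-variance trend in eBayes, and p-values were adjusted by Benjamini-Hochberg over all genes, with a threshold of 0.05. Receptors were set against the mean log2(FPKM + 1) of marker lists in the same library, with exact permutation tests over libraries. The code was tested on simulated data. Coordinates are from GENCODE M21 and promoters from RefSeq.

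The members, the lists of other receptors, signalling genes, ligands and cell type markers (T cell core, Treg, neutrophil, late neutrophil, monocyte, macrophage, dendritic, plasmacytoid dendritic, NK and cytotoxic, CD8 T, B cell, plasma cell, eosinophil, basophil and mast cell, erythroid, megakaryocyte, stromal) were chosen with earlier results of these data known. Named were all members, every other receptor past the threshold, up to 6 signalling genes and ligands each with the lowest p past it, and the 3 genes most like each member, leaving out unnamed models and pseudogenes. Other settings tried were T cell core scaling for the members, median-of-ratios scaling, quantile normalization, a minimum mean of 5 FPKM or none, a pseudocount of 0.1, eBayes without a trend, array weights, the replicate number as a block, and each library left out. A few genes that this rule would name are not reported here.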

Additional observations from a re-analysis of the deposited data

How the results depend on the processing

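Scaled to T cell core genes, which moved the median of all tested genes to 0.56 and called 80.8% of them higher, 5 members were called higher and 2 lower, and the log2 changes were 0.49 (Cxcr4), 0.26 (Cxcr6), 0.61 (Ccr2), 0.28 (Ccr7), all opposite in sign to those in FPKM as deposited, and -0.094 (Cxcr3, no longer called). This scale divides by genes that were themselves lower in irradiated libraries. With median-of-ratios scaling, Ccr2 was at 0.0024. Leaving out each library in turn gave Cxcr6 changes of -0.43 to -0.31 and Ccr2 changes of -0.066 to 0.021 (above 0 without irradiated replicate 2). It gave Ccr7 changes of -0.32 to -0.07, and 2 to 6 lower ligands among the 12 to 15 that were tested. Over all genes it gave 414 to 684 higher and 709 to 968 lower, with the lowest counts without control replicate 2. A mean of at least 5 FPKM left 2 lower receptors outside the members and 2 lower ligands, with 8 tested of each. This setting could not be fitted for Ccr7 and Ccr9. Without a trend, 3 signalling genes were higher. With the replicate block, 2 members were higher and 4 lower, and over all genes 558 were higher and 948 lower. No pairing by replicate number was visible, since same-numbered deviations correlated at 0.011, -0.042 and -0.023 and not every library correlated best with its own number. With 3 libraries per group this cannot exclude a pairing, and no label states one. Cxcr2, Ccr1, Cx3cr1 and Ccr9 kept their direction and call under every alternative that could be fitted. Among the members, Ccr9 and Ccr7 had the fewest implied fragments, and Ccr9 reached the minimum mean only through the control libraries.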
